A study of Mus musculus with 6 samples.

Results

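The transcription factor genes described here are 10 genes that direct the forming heart, namely Nkx2-5, Tbx20, Tbx5, Mef2c, Myocd, Hand2, Irx4, Gata5, Tbx3 and Tbx2. They were chosen by gene symbol, and every probe set annotated to 1 of these symbols alone was taken, which gave 25 probe sets of 45101 on the array and 10 genes of 18194 with a probe set of a single symbol. Affymetrix arrays measured the RNA of single whole mouse embryos taken on embryonic day 9.5, with 3 RFC1-/- embryos and 3 RFC1+/+ embryos that were littermates in 3 litters. RFC1 (mouse symbol Slc19a1) is the gene of the reduced folate carrier, a membrane protein for folate uptake, and the targeted allele was carried on the inbred SWV background after transfer from a C57BL/6J hybrid stock. The RFC1-/- embryos were described in the sample labels as having craniorachischisis, an open neural tube along the head and trunk, and a chorioallantoic defect, and the RFC1+/+ embryos as normal. All dams were heterozygous and received 25 mg/kg folic acid by daily injection from embryonic day 0.5, so that both genotypes developed under the same supplement. The allele was inactive in every cell of the embryo and the whole embryo was extracted, so that the heart contributed only a part of each RNA sample.

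The heart is the first organ to work in the embryo, and at this stage it is a looped tube in which atrial and ventricular chambers begin to balloon out. NK-2 homeodomain, T-box, GATA, MEF2 and bHLH factors bind near the same muscle genes and regulate one another, and this shared network switches on the contractile proteins. T-box repressors hold back the chamber program in the atrioventricular canal and outflow tract, and most of the factors also act outside the heart, in limb buds, pharyngeal arches, gut endoderm, somites or motor neurons.

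Each probe set value is a log2 expression value from robust multiarray averaging (RMA), so that a difference of 1 is a doubling. Each RFC1-/- embryo was set against its own RFC1+/+ littermate (RFC1-/- minus RFC1+/+) in a limma fit that kept the litter as a block, and a gene was called where its Benjamini-Hochberg adjusted p over all genes or all probe sets was under 0.05. Genes were represented by their brightest probe set. A background level of 5.16 was set from 81 probe sets of olfactory and vomeronasal receptor genes, which an embryo at this stage is not known to use. The 6 arrays had medians between 5.43 and 5.49 and correlations with one another between 0.984 and 0.996. Slc19a1 itself, the targeted gene, was 1.91-fold higher in RFC1-/- embryos on its brightest probe set (limma over the whole array, adjusted p = 0.00809), and as no source used here says which part of the gene is missing from the allele, these probe sets do not check the genotypes. Markers of visceral endoderm, the epithelium of the yolk sac, were far higher in RFC1-/- embryos (15 of 16 called, with Alb at -0.07 the only one that was not), although the methods state that the extraembryonic membranes were set aside for genotyping.

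Of the 10 factors, Tbx20, Nkx2-5 and Myocd were higher in RFC1-/- embryos past the threshold and none was lower. Tbx20 was 1.95-fold higher, Myocd 1.63-fold and Nkx2-5 1.58-fold. Gata5, Irx4, Hand2, Mef2c, Tbx3 and Tbx5 were higher in the RFC1-/- embryo of every litter but did not pass, and Tbx2 was the only factor with a mean below 0. Over all genes, 3.67% were called higher and 1.65% lower, and for the 10 factors the counts were 3 and 0. At an unadjusted p under 0.05, 7 of the 10 were higher and 0 lower, where 10.4% of all genes were higher at that level. A higher value in all 3 litters was found for 9 of the 10, against 18.4% of all genes. In 7 of the 10 the lowest RFC1-/- embryo lay above the highest RFC1+/+ embryo, against 12.8% of all genes. The factors were chosen with earlier results of these data known, so that these shares are a description and not a test. The median log2 difference of the factors was 0.48, and 0.31, 0.46 and 0.41 in litters 1, 2 and 3, while the median of all genes was -0.01. In RNA of whole embryos, a larger number of heart cells, more RNA of a gene in each cell and a smaller part of other tissues cannot be told apart. This holds for every value given here. The study describes RFC1-/- embryos of dams on this supplement as developmentally delayed, and the part of such a delay in these values was not tested.

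**Figure D1:**
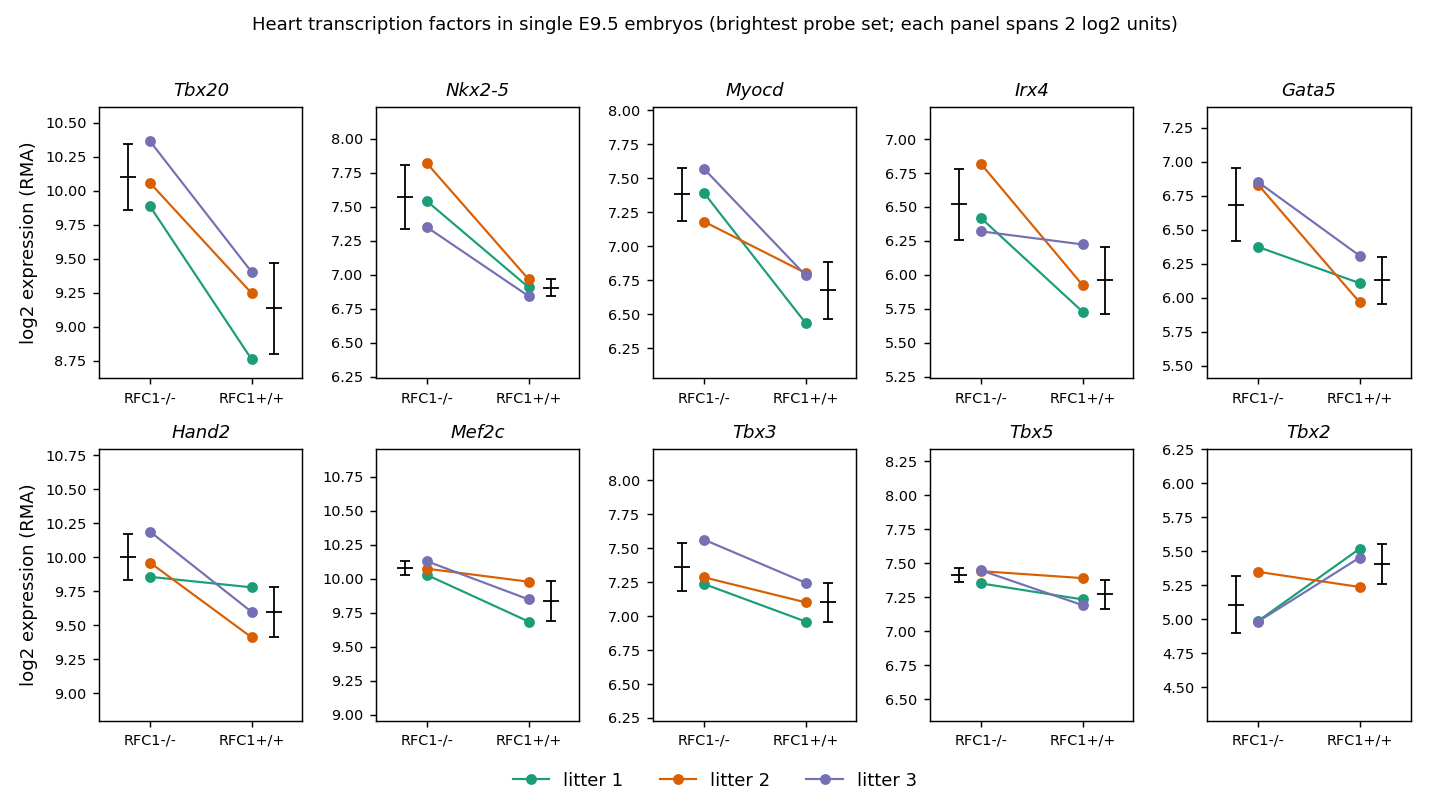
Log2 expression (y axis) of the 10 heart factors on their brightest probe set in RFC1-/- embryos (left) and their RFC1+/+ littermates (right), with 1 coloured line per litter and black marks for the mean and SD of 3 embryos. Every line of Tbx20, Nkx2-5 and Myocd falls toward the RFC1+/+ side, and the lines of Tbx2 do not share a direction.

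The promoters of Tbx20 and Nkx2-5 are shown because these genes passed the threshold in the same direction (no window was matched for Myocd), and that of Hand2 is set beside them because it holds GATA and NK-2 letters, which the Tbx20 and Nkx2-5 windows lack. Each is the 250 bases before the start of the gene in RefSeq on build GRCm38.p6, written 5′ to 3′ on the strand of the gene, which is minus for Tbx20 (chr9:24774304-24774553) and Nkx2-5 (chr17:26841566-26841815) and plus for Hand2 (chr8:57320733-57320982). Capitals mark matches on either strand to the GATA letters GATAA, the NK-2 letters AAGTG, the T-box letters GGTGTGA and the MEF2 element.
Tbx20: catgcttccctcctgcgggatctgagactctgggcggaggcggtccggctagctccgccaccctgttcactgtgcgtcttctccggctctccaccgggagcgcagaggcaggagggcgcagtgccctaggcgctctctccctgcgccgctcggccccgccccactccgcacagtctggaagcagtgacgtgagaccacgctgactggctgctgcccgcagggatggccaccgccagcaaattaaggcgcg
Nkx2-5: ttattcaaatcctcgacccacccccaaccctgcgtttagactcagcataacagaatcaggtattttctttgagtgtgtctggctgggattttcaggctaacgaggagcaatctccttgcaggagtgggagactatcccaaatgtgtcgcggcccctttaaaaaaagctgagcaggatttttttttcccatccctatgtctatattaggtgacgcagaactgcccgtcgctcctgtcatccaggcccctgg
Hand2: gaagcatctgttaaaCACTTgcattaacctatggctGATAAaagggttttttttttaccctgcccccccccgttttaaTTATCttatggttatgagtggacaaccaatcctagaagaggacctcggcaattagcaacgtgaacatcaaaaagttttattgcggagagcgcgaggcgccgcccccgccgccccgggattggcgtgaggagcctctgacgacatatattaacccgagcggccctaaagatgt
The Hand2 window held 2 GATA matches, 1 NK-2 match and 2 matches to the E-box CANNTG of bHLH factors, and its NK-2 match lies within 1 of these E-boxes. The Nkx2-5 window held 1 E-box and no other match, and the Tbx20 window held none of the motifs searched, including the CArG box of serum response factor. Among 32851 promoter windows of the same length, 66.2% held an E-box, 22.6% the GATA letters, 40.7% the NK-2 letters, 3.3% the T-box letters, 2.9% the MEF2 element and 1.5% the CArG box. The letters G and C made up 68.8% of the Tbx20 window and 49.2% of the Nkx2-5 and of the Hand2 window, against a median of 52.4% over all windows. RefSeq windows were matched for 6 of the 10 factors (Tbx20, Nkx2-5, Hand2, Mef2c, Gata5 and Irx4). Of the windows not shown, the 3 of Mef2c each held 1 NK-2 match and 1 of them also held 2 GATA matches, while those of Gata5 and Irx4 held neither.

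Nkx2-5 is the NK-2 homeodomain factor of cardiac progenitors and of the myocardium, and its loss in mice stops the heart at looping. Its only probe set (1449566_at) read 7.54, 7.82 and 7.35 in the RFC1-/- embryos of litters 1, 2 and 3, against 6.91, 6.97 and 6.84 in their RFC1+/+ littermates. All 3 RFC1-/- embryos lay above all 3 RFC1+/+ embryos, and litter 2 held the widest gap. The means were 7.57 ± 0.24 for RFC1-/- and 6.90 ± 0.06 for RFC1+/+ (SD, n = 3 embryos each). The log2 difference was 0.66 with a standard error of 0.11 and a 95% interval of 0.40 to 0.93 (adjusted p = 0.0224 from limma). The call ended without litter 1 and without litter 2 (adjusted p = 0.104 and 0.0772 from limma), while the log2 differences there were 0.68 and 0.57. Over all genes, the calls higher also went from 667 to 237 without litter 1 and to 527 without litter 2.

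Tbx20 encodes a T-box factor that is needed for growth of the chambers and that restrains Tbx2 in the mouse myocardium, and it is also active in hindbrain motor neurons. Its brightest probe set (1453351_at) read 9.88, 10.06 and 10.36 in RFC1-/- embryos, against 8.76, 9.25 and 9.40 in RFC1+/+ littermates. The groups did not overlap, and the differences of 1.13, 0.81 and 0.96 in litters 1, 2 and 3 were of similar size. On the brightest probe sets this was the widest difference among the 10 factors, 0.97 on the log2 scale with a standard error of 0.11 (95% interval 0.71 to 1.22, adjusted p = 0.00833 from limma over all genes). With the probe sets of each gene averaged, Tbx20 differed by 0.59 (adjusted p = 0.0217 from limma) and Nkx2-5, with its 1 probe set, by 0.66. The gene is on the list that the study chose on these samples, so that its call here is not independent evidence of the direction.

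The other Tbx20 probe sets gave a less uniform picture. Probe set 1425158_at read 5.13, 5.63 and 5.47 in RFC1-/- embryos, against 5.19, 4.57 and 4.58 in RFC1+/+ littermates. It was thus higher in litters 2 and 3 and slightly lower in litter 1, with a mean difference of 0.63 (limma, adjusted p = 0.1996). Probe set 1422219_a_at lay below the background level in both genotypes and differed by 0.18. The call of the brightest probe set, held over all probe sets at an adjusted p of 0.00971 from limma, ended without litter 1 (adjusted p = 0.0843 from limma), while over all genes it stood with any litter left out (adjusted p between 0.00565 and 0.0356 from limma).

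Tbx5, the T-box activator that partners with Nkx2-5 and Gata4 and that also starts the forelimb bud, stayed close to its RFC1+/+ level. Its brightest probe set (1425695_at) read 7.35, 7.44 and 7.45 in RFC1-/- embryos, against 7.23, 7.39 and 7.19 in RFC1+/+ littermates. The groups overlapped, although each RFC1-/- embryo lay above its own littermate. The log2 difference was 0.14, with a 95% interval of -0.10 to 0.38 (adjusted p = 0.557 from limma). The other Tbx5 probe set lay below the background level and differed by -0.03.

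Myocd encodes myocardin, the partner of serum response factor that turns on contractile genes in cardiac and smooth muscle. Its brightest probe set (1425978_at) read 7.39, 7.18 and 7.57 in RFC1-/- embryos, against 6.43, 6.80 and 6.79 in RFC1+/+ littermates. The groups did not overlap, and the gap was narrowest in litter 2. The log2 difference was 0.71 with a standard error of 0.13 (95% interval 0.39 to 1.02, adjusted p = 0.0327 from limma). Its other probe set (1425808_a_at), below the background level in both genotypes, differed by 0.14. The call ended without litter 1 (log2 difference 0.58, adjusted p = 0.177 from limma) and when the probe sets were averaged (0.42, adjusted p = 0.0898 from limma).

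Mef2c, the MADS-box factor of the anterior heart field that is also used in somites, neural crest and endothelium, had the most readable probe sets of the 10 factors, 5 above the background level. The brightest (1424852_at) read 10.03, 10.07 and 10.13 in RFC1-/- embryos, against 9.69, 9.98 and 9.85 in RFC1+/+ littermates. The groups did not overlap, by a narrow margin set by the RFC1+/+ embryo of litter 2. The log2 difference was 0.24 (95% interval -0.01 to 0.49, adjusted p = 0.286 from limma). All 5 probe sets had means above 0, between 0.20 and 0.32, and none passed, with adjusted p between 0.279 and 0.721 in limma over the whole array. Litter 1 gave the widest difference on each of the 5, and 1 of them (1421027_a_at) was lower in the RFC1-/- embryo of litter 3.

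Hand2, a bHLH factor of the right ventricle that also acts in the pharyngeal arches, limb buds and sympathetic neurons, read 9.86, 9.96 and 10.19 in RFC1-/- embryos on its brightest probe set (1436041_at), against 9.78, 9.41 and 9.60 in RFC1+/+ littermates. The groups did not overlap, and the difference was small in litter 1 (0.08) and wider in litters 2 and 3 (0.55 and 0.59). The mean log2 difference was 0.41 (95% interval 0.10 to 0.72, adjusted p = 0.148 from limma). The other Hand2 probe sets lay below the background level and differed by -0.02 and -0.05.

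Irx4, the Iroquois factor confined to ventricular myocardium among the heart chambers, had 1 probe set (1419539_at). It read 6.42, 6.82 and 6.32 in RFC1-/- embryos, against 5.73, 5.92 and 6.22 in RFC1+/+ littermates. The groups did not overlap, but the gap in litter 3 was only 0.10, against 0.69 and 0.89 in litters 1 and 2. The mean log2 difference was 0.56 with a standard error of 0.16 (adjusted p = 0.111 from limma). Without litter 3 it was 0.79 and passed (adjusted p = 0.00903 from limma), and it also passed with embryo sex as a covariate (adjusted p = 0.0172 from limma). In these fits the calls higher over all genes also went up, from 667 to 861 and 1146.

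Gata5, a zinc finger factor of the endocardium and gut endoderm, read 6.37, 6.83 and 6.85 in RFC1-/- embryos on its brightest probe set (1450126_at), against 6.11, 5.97 and 6.31 in RFC1+/+ littermates. The groups did not overlap, with the RFC1-/- embryo of litter 1 just above the RFC1+/+ embryo of litter 3. The log2 difference was 0.56 with a standard error of 0.13 (95% interval 0.24 to 0.88, adjusted p = 0.0665 from limma). It passed with embryo sex as a covariate (adjusted p = 0.0367 from limma), a fit that called more genes higher over the whole array. The other Gata5 probe set lay below the background level and differed by 0.07.

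The T-box repressors Tbx3 and Tbx2 keep the atrioventricular canal and the conduction tissue from taking on chamber character, and both are also used in limb buds. The brightest Tbx3 probe set (1448029_at) read 7.24, 7.28 and 7.56 in RFC1-/- embryos, against 6.96, 7.10 and 7.24 in RFC1+/+ littermates. The groups overlapped, and the log2 difference was 0.26 (95% interval 0.03 to 0.49, adjusted p = 0.216 from limma). A further Tbx3 probe set (1445757_at) read 5.70, 5.74 and 5.89 in RFC1-/- embryos, against 5.49, 5.26 and 5.41 in RFC1+/+ littermates, a difference of 0.39 without overlap below the threshold (limma over the whole array, adjusted p = 0.123). The others differed by 0.05, -0.02 and -0.34, and the last of these (1444594_at), below the background level in both genotypes, was lower in the RFC1-/- embryo of all 3 litters (limma over the whole array, adjusted p = 0.157).

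Tbx2 had 1 probe set (1422545_at), and its values lay around the background level. It read 4.99, 5.35 and 4.98 in RFC1-/- embryos, against 5.52, 5.24 and 5.45 in RFC1+/+ littermates. The RFC1-/- embryo was lower in litters 1 and 3 and higher in litter 2, and the groups overlapped. The log2 difference was -0.30 (95% interval -0.65 to 0.05, adjusted p = 0.358 from limma), so that no difference was detectable on this probe set.

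Across the 25 probe sets, the same 3 that carried the gene calls were called higher and none lower, where 1.87% of all probe sets were called higher and 0.882% lower. Values below the background level in both genotypes were found for 8 of the 25, of which none was called. Of the other 17, 16 had means above 0 and 13 were higher in the RFC1-/- embryo of all 3 litters. Tbx20 1425158_at was kept through its RFC1-/- mean alone (5.41, against 4.78 in RFC1+/+). Tbx2 1422545_at was kept through its RFC1+/+ mean alone (5.40, against 5.11 in RFC1-/-). The counts of the 17 thus depend in part on the groups compared. Several of the 17 read the same gene in the same embryos, so that they are not independent. The matching share over all probe sets above the background level was not taken. Only 3 of the 25 passed the 1.5-fold variation filter of the study's methods, 1 of Nkx2-5 and 2 of Tbx20. Among the 2982 probe sets that passed it, 0 of the 3 were called with limma (adjusted p = 0.227 for Nkx2-5 and adjusted p = 0.0689 and 0.248 for Tbx20), and 1 of them had an unadjusted p under 0.05. The random-variance paired test of the methods was also fitted and adjusted over the same 2982. It called 1 of the 3, the brightest Tbx20 probe set (adjusted p = 0.0337 from that test). For Nkx2-5 and the other Tbx20 probe set that test gave adjusted p of 0.0807 and 0.144. The study's list used a stricter adjusted level than 0.05, which Tbx20 did not reach in that test as run here.

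**Figure D2:**
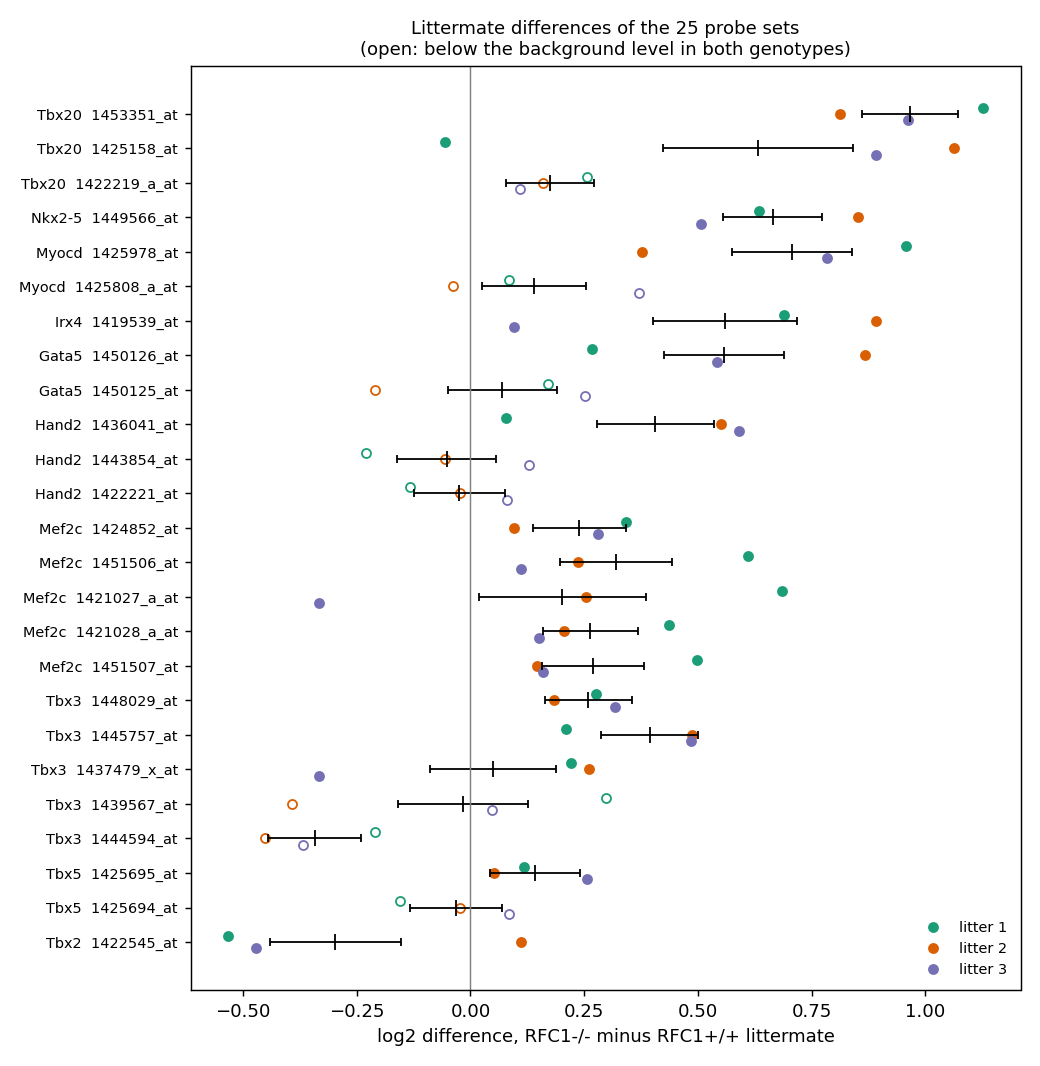
Log2 difference between the RFC1-/- embryo and its RFC1+/+ littermate (x axis) for the 25 probe sets (y axis), with coloured points for the 3 litters and a black mark for the mean with 1 standard error from limma. Open points are the 8 probe sets below the background level of 5.16 in both genotypes, whose means run from -0.34 for Tbx3 1444594_at to 0.18 for Tbx20 1422219_a_at, and the brightest Tbx20 probe set lies farthest to the right at 0.97.

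Contractile and calcium genes, several of which these factors are known to drive, were read beside them. Of 25 genes of the cardiac sarcomere and of calcium handling, 15 rose and 0 fell, and 24 had means above 0, with Pln, a brake on the calcium pump, at -0.03. Tnnc1, cardiac troponin C, was 1.98-fold higher in RFC1-/- embryos, Tnnt2, cardiac troponin T, 1.92-fold, Myl3, a myosin light chain of ventricle, 1.81-fold and Myl7, the light chain of atrium, 1.79-fold (adjusted p = 0.0114, 0.0300, 0.0170 and 0.0333 from limma). The median log2 difference of this list was 0.62, and 0.80, 0.69 and 0.38 in litters 1, 2 and 3. Summed on the linear scale over the list, levels ran between 60940 and 65500 in RFC1-/- embryos and between 39080 and 45500 in RFC1+/+ embryos, and those of the 10 factors between 3785 and 4548 in RFC1-/- embryos and between 2785 and 3094 in RFC1+/+ embryos. Such sums weigh the brightest genes most, which were Actc1, Tpm1, Atp2a2 and Myl7 on the list and Tbx20, Mef2c and Hand2 among the factors. The 15 calls became 1 without litter 1, 6 without litter 2 and 9 with arrays centred on their median. Under the same settings the calls higher over all genes went from 667 to 237, 527 and 559. With the variation filter, only 9 of the 25 were tested and 3 were called higher, where 380 of 1453 genes were.

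Genes of the chamber myocardium moved less evenly. Of 11 measured, 4 rose and 0 fell, and they were Cited1, a transcriptional cofactor (2.82-fold), Fhl2, a LIM protein of the sarcomere (1.79-fold), Csrp3, the muscle LIM protein (1.58-fold) and Popdc2, a membrane protein of striated muscle (1.54-fold). Nppa, the natriuretic peptide gene that Nkx2-5 and Tbx5 activate in the chambers, had a log2 difference of 0.14 (adjusted p = 0.624 from limma), and Gja5, another target of Tbx5, lay below the background level in both genotypes. The 4 calls became 2 without litter 1 and 1 with the variation filter, under which only 3 of the 11 were tested.

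Set against the median difference of the sarcomere and calcium genes of the same litter, the factors spread over more than 1 log2 unit. Tbx2, whose values lay around the background level, was at the low end. The other factors ran from -0.48 for Tbx5 to 0.34 for Tbx20. Tbx20 exceeded that median in all 3 litters, by 0.34 ± 0.23 on average. Nkx2-5 and Myocd lay close to it, at 0.04 ± 0.18 and 0.08 ± 0.37, and Irx4 and Gata5 each at -0.06 (SD 0.24 and 0.40). Tbx3, Mef2c, Tbx5 and Tbx2 lay below it in all 3 litters, by -0.36 ± 0.26, -0.38 ± 0.26, -0.48 ± 0.31 and -0.92 ± 0.38 (SD, n = 3 litters). These values are a description, and no test was run on them.

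**Figure D3:**
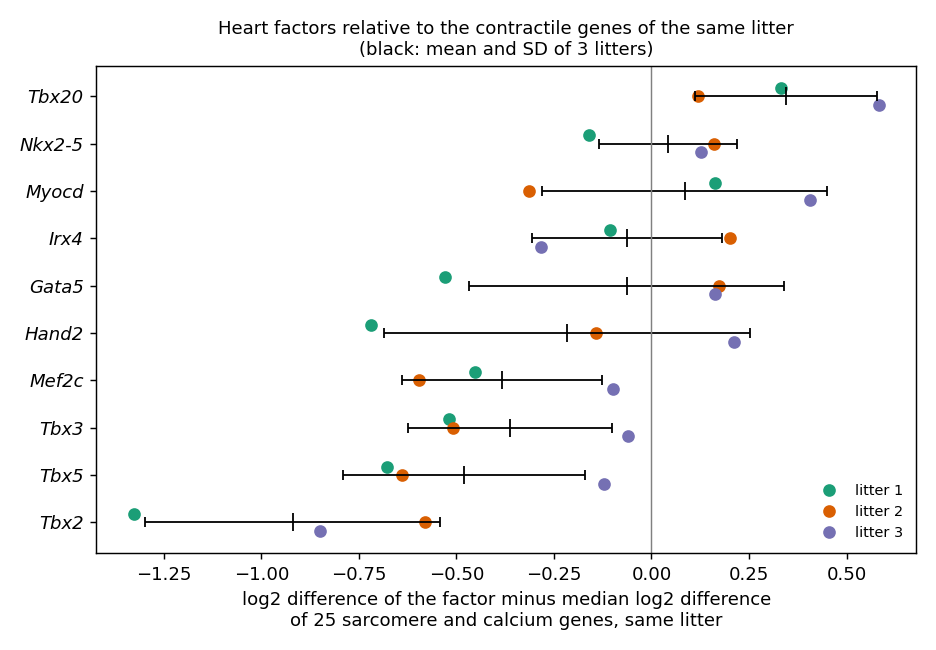
Log2 difference of each heart factor minus the median log2 difference of the 25 sarcomere and calcium genes in the same litter (x axis), by factor (y axis), with coloured points for the litters and black marks for mean and SD of 3 litters. Tbx20 lies to the right of 0 in all 3 litters, and Tbx3, Mef2c, Tbx5 and Tbx2 lie to the left of it in all 3. The values of Tbx2 lay around the background level.

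Nkx2-5 was compared with 64 genes of the sarcomere, chamber and other heart factor lists, which leave out the 10 factors. Those whose values over the 6 arrays followed Nkx2-5 most closely were Tnni1, the troponin I of the embryonic heart (Pearson r = 0.99), Myl2, the myosin light chain of ventricle (0.95), Popdc2 (0.95), Myl3 (0.95) and Slc8a1, the sodium-calcium exchanger (0.93). The 6 arrays share the genotype difference and the litters, and with the genotype means removed r was 0.91 for Tnni1, 0.60 for Myl2, 0.67 for Popdc2, 0.56 for Myl3 and 0.36 for Slc8a1.

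Of 28 other heart factors, 3 rose and 0 fell. These were Gata4 (1.49-fold, adjusted p = 0.0252 from limma), the GATA partner of Nkx2-5 and Tbx5, Gata6 (1.43-fold, adjusted p = 0.0346), and Hey2, a repressor of the ventricle downstream of Notch (1.42-fold, adjusted p = 0.0469). Gata4 and Gata6 are also factors of visceral endoderm. The median log2 difference of the list was 0.13, against 0.48 for the 10 factors. Not every relative of the 10 had a mean above 0. Tbx18, a T-box factor of the sinus horns and epicardium, differed by -0.36 (adjusted p = 0.221 from limma), and the Iroquois genes Irx3 and Irx5 by -0.36 and -0.46 (adjusted p = 0.181 and 0.185 from limma). These 3 were singled out after their values were seen. Isl1, the factor of second heart field progenitors and motor neurons, differed by 0.32 (adjusted p = 0.154 from limma), and Tbx1, of the pharynx and second heart field, by 0.59 (adjusted p = 0.130 from limma), both also picked after their values were seen. The 3 calls became 0 without litter 1 and 0 without litter 2, and 5 without litter 3.

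Signals that set up the heart field gave 3 genes that rose and 0 that fell among 21 measured. Bmp4 and Bmp2, ligands that induce Nkx2-5 in cardiac mesoderm, were 2.18-fold and 1.75-fold higher in RFC1-/- embryos, and Tgfb2, a ligand of the endocardial cushions, 1.70-fold (adjusted p = 0.0251, 0.0137 and 0.0113 from limma). The median log2 difference of these signals was 0.06. The 3 calls became 0 without litter 1.

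**Figure D4:**
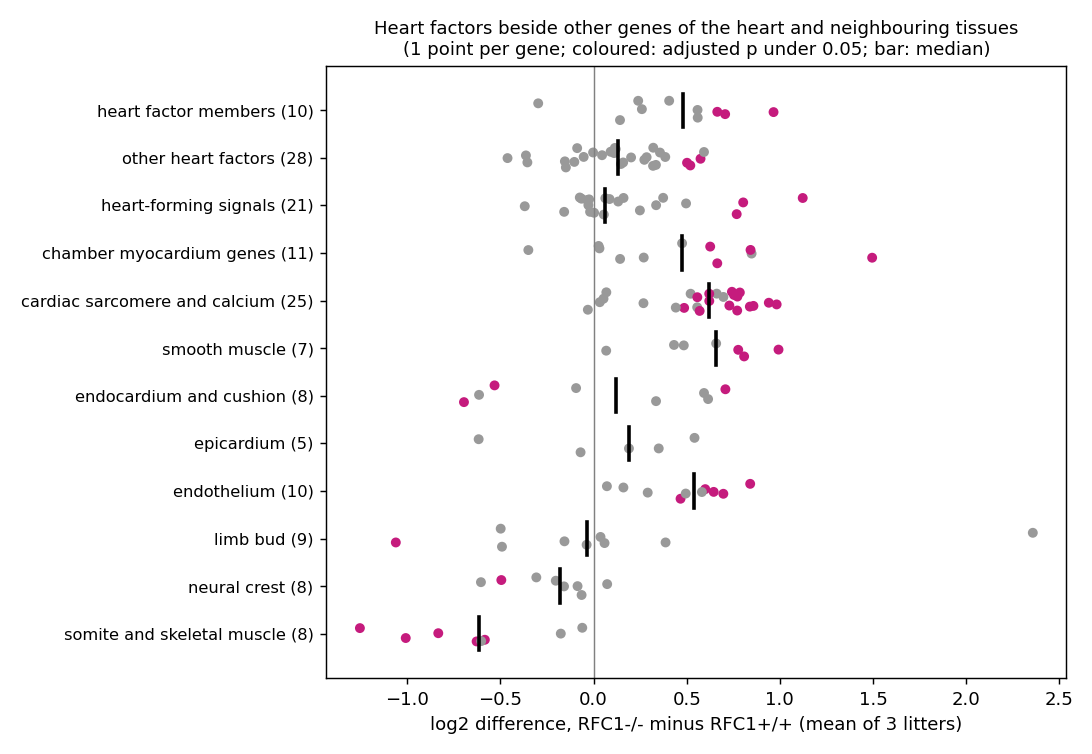
Log2 difference, RFC1-/- minus RFC1+/+ (x axis, mean of 3 litters), of single genes in the 10 heart factors and in lists of heart and neighbouring tissues, each with its gene number in brackets (y axis), where coloured points passed an adjusted p of 0.05 and black bars are medians. The factors have a median of 0.48, between the other heart factors at 0.13 and the sarcomere and calcium genes at 0.62, and the gray point at 2.36 in the limb bud list is Tbx4.

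Because most of the 10 factors are used in several tissues, markers of those tissues were read beside them. Smooth muscle, where Myocd acts, had 3 of 7 genes that rose and 0 that fell, with Tagln 1.99-fold, Cnn1 1.75-fold and Acta2 1.71-fold higher in RFC1-/- embryos, and sums between 10680 and 12130 in RFC1-/- embryos and between 6054 and 7366 in RFC1+/+ embryos. Of these genes Acta2 and Tagln are also expressed by the early heart muscle. Endothelium, where Mef2c acts, had 5 of 10 that rose and 0 that fell (Kdr, Tek, Esam, Flt1 and Cdh5), with a median log2 difference of 0.54 and sums between 3552 and 4149 in RFC1-/- embryos and between 2463 and 2862 in RFC1+/+ embryos. Without litter 1 the calls became 1 in smooth muscle and 1 in endothelium, and without litter 2 they became 2 in each. The part of these markers in the values of Myocd and Mef2c was not tested.

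The somite and skeletal muscle list ran the other way. There 5 of 8 genes fell and 0 rose (Pax3 2.39-fold, Myog 2.01-fold, Pax7 1.78-fold and Myf5 1.55-fold lower in RFC1-/- embryos, and Meox1 with a log2 difference of -0.58), with sums between 815 and 1051 in RFC1-/- embryos and between 1513 and 1731 in RFC1+/+ embryos. The 5 calls became 3 with any 1 litter left out, with no replicate block or with arrays centred on their median. In the limb bud list, Prrx1 fell (2.09-fold) and 0 of 9 rose, with a median of -0.04. Tbx4, a T-box gene of the hindlimb and of the allantois, had a log2 difference of 2.36 that did not pass (adjusted p = 0.0604 from limma). Of 8 neural crest genes only Dlx5 fell (1.41-fold lower), and 0 rose. Of 5 measured motor neuron genes only Mnx1, which gut endoderm also expresses, rose (1.70-fold), and 3 of the 5, among them Chat, lay below the background level in both genotypes. Among 8 genes of the endocardium and cushions, Npr3 rose (1.63-fold) and Sox9 and Twist1 fell (1.62-fold and 1.45-fold lower), and none of 5 epicardial genes was called in limma (2 at an unadjusted p under 0.05, and 1 higher and 1 lower called without litter 3). Without litter 1 no gene of the neural crest, motor neuron or endocardium and cushion lists was called, and with any 1 litter left out, 1 limb bud gene was called higher.

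Visceral endoderm was the cell type whose markers differed most among the lists read here. Its 16 measured genes had a median log2 difference of 3.47, with Cubn 35.5-fold and Apoa1 34.8-fold higher in RFC1-/- embryos, and sums between 24470 and 64680 in RFC1-/- embryos against 2953 to 7031 in RFC1+/+ embryos. By litter the median was 2.55, 3.01 and 4.68 in litters 1, 2 and 3, whereas the median of the 10 factors was 0.31, 0.46 and 0.41 and that of the sarcomere and calcium genes 0.80, 0.69 and 0.38. The marker genes Afp, Ttr, Apob, Apoa1, Apoa4, Cubn, Amn, Rbp4 and Hnf4a were read above the background level in all 3 RFC1-/- embryos. In RFC1+/+ embryos Apoa4 and Amn fell below it in litters 2 and 3, and the others lay above it in all 3. For Cubn, the study also describes more cubilin protein in the heart muscle and cranial mesenchyme of RFC1-/- embryos. The part of these markers in the differences of the heart factors was not tested.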

How the data were processed

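RNA of 6 whole embryos (3 RFC1-/- and 3 RFC1+/+, littermates in 3 litters) was measured with 1 array each. The authors deposited log2 expression values for 45101 probe sets, made with RMA, which is named in the methods and in the submitters' processing notes (background correction of perfect match probes, quantile normalization and median polish), and no software version is stated there. RMA compresses differences near background, and arrays give no read depth, so precision is limited by how many arrays there are. The table was deposited before the methods' 1.5-fold variation filter, and 0 columns of values were left unused.

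Gene names came from the platform annotation. A single symbol was given there to 34958 probe sets, several symbols to 932 and no symbol to 9211. Only probe sets with 1 symbol were given to a gene. RFC1-/- embryos were set against RFC1+/+ littermates in limma 3.58.1 in R 4.3.3, with the litter as a block and empirical Bayes moderation, once over all probe sets and once over 18194 genes on their brightest probe set, with Benjamini-Hochberg adjustment. The methods used a random-variance paired test, which was run as an alternative. The background level is the 95th percentile of the means of the receptor probe sets. The fits were tested on simulated data. Tables and plots were made with Python 3.11.15, pandas 2.3.3, numpy 2.4.6 and matplotlib 3.10.9. Promoter windows were read from RefSeq.

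Litters were paired from the labels and the methods, as littermates. Deviations from the group means correlated within litters 1, 2 and 3 at 0.10, -0.05 and -0.15. The factors and the gene lists were chosen with earlier results of these data known. The text names all 10 factors with their probe sets, Slc19a1, up to 4 called genes of each list with the largest log2 difference together with any called against the direction of most, and the 5 genes of the cardiac lists most like Nkx2-5. Other names were added after their values were seen. Alternatives were the variation filter, a fit without dim probe sets, a fit with no replicate block, a variance trend with intensity, median centring of the arrays, quantile normalization run again, the random-variance paired test, embryo sex as a covariate, averaged probe sets, and each litter left out in turn.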

Additional observations from a re-analysis of the deposited data

How the results depend on the processing

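The count of 3 heart factors called higher became 1 (Tbx20) with the variation filter, under which 2 of the 10 were tested. Of the 1453 genes tested with that filter, 380 were called higher. The count of factors became 5 with embryo sex as a covariate, a fit with 1 residual degree of freedom that added Gata5 and Irx4. That fit called 1146 of 18194 genes higher. The count of factors lay between 1 and 4 with each litter left out, with 1 without litter 1. Those fits called between 237 and 861 of 18194 genes higher. The count of 3 probe sets called higher became 0 with the variation filter in limma (1, of Tbx20, with the random-variance paired test fitted on the filtered probe sets) and lay between 0 and 3 with each litter left out, with 0 without litter 1. In the fit without the replicate block, that is without the litters as pairs, both counts were 3, and no call of a factor changed. No factor was called lower under any alternative run. The averaged probe sets gave 2 factors, without Myocd, and the second quantile normalization 2 probe sets (Myocd adjusted p = 0.0569 from limma).

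Signs turned only for probe sets that were not called, each with 1 litter left out. These log2 differences ran between -0.0201 and 0.21 for Gata5 1450125_at, between -0.0773 and 0.0295 for Hand2 1422221_at, between -0.14 and 0.0366 for Hand2 1443854_at, between -0.0391 and 0.47 for Mef2c 1421027_a_at, between -0.0558 and 0.24 for Tbx3 1437479_x_at, between -0.17 and 0.17 for Tbx3 1439567_at and between -0.0887 and 0.0309 for Tbx5 1425694_at. The cause of these changes was not tested. The limits are 3 embryos per genotype, whole embryos as the source of RNA, and 8 of 25 probe sets below the background level. Embryo sex, read from Xist and Eif2s3y, was male in litters 1 and 2 and female in litter 3 for RFC1-/-, and male in litters 1 and 3 and female in litter 2 for RFC1+/+.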
